A study of Rattus norvegicus with 79 samples.

Results

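The genes described here are 4 neuropeptide precursors and 2 markers of GABAergic interneurons of the hippocampus: Sst (somatostatin), Npy (neuropeptide Y), Tac1 (the precursor of substance P), Cck (cholecystokinin), Pvalb (parvalbumin) and Gad1 (the GABA-synthesising enzyme GAD67). They were taken by gene symbol from the probe-to-gene table of the array, which gave 8 probe sets for the 6 genes out of 8799 probe sets in all. Sst and Tac1 each had 2 probe sets and the other genes had 1. A filter on low mean signal kept 7 of the 8 probe sets, and the one it left out was X56306_s_at of Tac1.

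The signals came from 79 arrays, 1 per animal, of RNA from the CA1 cell layer of male Fischer 344 rats aged 3 months (young, 19 arrays) or 24 months (aged, 60 arrays). The layer was punched from slices, so all cells of the punch were pooled on an array, and the RNA was amplified in repeated rounds of cDNA synthesis before labelling. The task was a water maze, where rats swim until they find an escape platform. Cage controls stayed in their cages (3 young, 5 aged), yoked controls swam without a platform (6 young, 8 aged), visible platform rats could see the platform (4 young, 8 aged), and hidden platform rats had to learn its place. There were 6 young hidden platform rats, 13 aged ones called learning unimpaired (U) and 10 called learning impaired (I). Another 16 arrays of aged hidden platform rats are marked B instead. The labels give the letter no meaning for learning, and these arrays are kept as a group of their own outside the age comparison. All animals were of one strain and sex, and no drug, transgene or deletion is named in the labels.

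GABAergic interneurons are a small share of CA1 cells, and they restrain and time the firing of the pyramidal cells. Parvalbumin marks fast-spiking basket and axo-axonic cells around the cell body layer, somatostatin marks dendrite-targeting cells of stratum oriens, and neuropeptide Y occurs in several interneuron types, many of them also somatostatin cells. Cholecystokinin marks a basket cell type, but in rodents its messenger RNA is also made by pyramidal cells, so its level in a punch need not follow interneurons. GAD67 is made by all GABAergic cells. The peptide precursors are cut by proteases of the secretory granule and released with GABA on strong activity, and transcription of somatostatin is a textbook case of control through cyclic AMP.

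Array quality was uneven. The median Spearman correlation of an array with the other arrays was under 0.85 on 14 arrays, 5 of the 19 young, 9 of the 44 aged U, I and control arrays, and 0 of the 16 B arrays. Among them were 2 of 3 young cage, 2 of 4 young visible, 4 of 8 aged visible and 2 of 10 impaired arrays. Of these 14 arrays, 7 also had a 3' to 5' control ratio (log2, from control probe sets at both transcript ends) under 1, against a median of 3.1 in young and 3.26 in aged arrays, and 2 of those 7 were young cage arrays. These are called arrays of low correlation below, and the results that rest most on them are also given without them. Errors written with ± are standard errors of log2 differences, or SD where so marked. Adjusted p-values are from limma with Benjamini-Hochberg adjustment over all 5244 tested probe sets, and a gene is said to have risen or fallen where that value is under 0.05.

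Promoter sequences are shown for the 4 genes whose signal differed among the 10 groups by that test (below): Sst, Tac1, Npy and Gad1. They are RefSeq sequences of build GRCr8, 250 bases before to 50 after an annotated transcript start, read 5′ to 3′ on the plus strand. Capitals mark the cyclic AMP response element TGACGTCA and its 5-letter core, TGACG or CGTCA, searched on both strands. The full element contains both forms of the core. It is present in the Sst window (chr11:90461296-90461595), where it begins at base 253 of the window. That is past the 250 bases before the annotated start, so by this annotation it is not upstream of the start. The core occurs once in the Tac1 window (chr4:36645333-36645632), beginning at base 45. Neither occurs in the windows of Npy (chr4:80211861-80212160) and Gad1 (chr3:75777202-75777501). Of 33469 rat promoter windows of the same length, 612 (1.83%) hold the full element and 7097 (21.2%) hold the core. A match is a description of these letters only.
Sst: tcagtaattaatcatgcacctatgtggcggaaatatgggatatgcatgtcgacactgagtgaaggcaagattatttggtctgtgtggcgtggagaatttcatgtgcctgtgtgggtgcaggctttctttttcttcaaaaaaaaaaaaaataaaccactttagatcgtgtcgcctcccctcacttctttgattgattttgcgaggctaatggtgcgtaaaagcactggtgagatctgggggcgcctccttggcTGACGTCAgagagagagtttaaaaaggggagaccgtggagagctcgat
Tac1: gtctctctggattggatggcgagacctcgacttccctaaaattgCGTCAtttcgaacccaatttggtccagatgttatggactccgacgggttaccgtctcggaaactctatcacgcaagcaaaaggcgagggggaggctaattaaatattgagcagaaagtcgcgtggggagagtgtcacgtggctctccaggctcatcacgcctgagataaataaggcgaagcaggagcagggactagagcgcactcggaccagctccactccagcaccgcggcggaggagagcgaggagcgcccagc
Npy: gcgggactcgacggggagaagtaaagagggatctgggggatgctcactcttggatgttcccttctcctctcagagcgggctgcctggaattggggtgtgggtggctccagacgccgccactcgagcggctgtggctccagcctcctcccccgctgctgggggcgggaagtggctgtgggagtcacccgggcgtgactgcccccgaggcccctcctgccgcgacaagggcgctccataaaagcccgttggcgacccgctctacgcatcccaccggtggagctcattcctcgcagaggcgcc
Gad1: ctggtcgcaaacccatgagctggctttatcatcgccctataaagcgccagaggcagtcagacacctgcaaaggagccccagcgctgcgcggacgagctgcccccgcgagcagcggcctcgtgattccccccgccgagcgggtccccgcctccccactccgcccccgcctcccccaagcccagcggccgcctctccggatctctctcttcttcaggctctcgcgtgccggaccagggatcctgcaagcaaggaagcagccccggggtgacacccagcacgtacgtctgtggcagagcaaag

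The clearest pattern in the peptides was the level of Tac1 in young against aged rats. Tac1 (M15191_s_at) read 1207.8, 1306 and 1366.2 in the 3 young cage controls and 185.2, 317.1, 389.2, 423.9 and 482.1 in the 5 aged cage controls, so the groups did not overlap. The 6 young yoked arrays read 407.3, 500.4, 585.1, 784.8, 808.5 and 1096.2, and the 8 aged yoked arrays lay between 262.1 and 1008.1 with a median of 407.6. In the visible platform groups the 4 young arrays read 525.1, 832.4, 839.5 and 913.4, against a range of 118.3 to 648.7 and a median of 387.3 in the 8 aged. The young hidden platform arrays read 360.7, 532.6, 552.6, 611.6, 706.2 and 1245.9. Aged hidden platform arrays had medians of 428 (U, 284.9 to 946.9), 499.1 (I, 236.6 to 753.9) and 392 (B, 227.5 to 818.3). Every young group stood above every aged group in its mean, while single arrays overlapped in all treatments except the cage controls.

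Sst (M25890_at) was highest in young cage controls, at 2868.4, 8300.3 and 14546.5, and the highest 2 of these exceeded every other array in the study except 1. That other array, a young visible platform one at 11573.5, had 3 companions at 1791.7, 1961.5 and 3713.5. Young yoked arrays read 2089, 2215.9, 2385.4, 2441.9, 4816.7 and 4947.3, and young hidden platform arrays 1808.2, 2680.8, 3167.5, 3534.1, 4286 and 4914.1. The 5 aged cage controls read 1525.1, 1684.2, 2052.6, 3162.9 and 3779.8. Medians were 2529.7 in aged yoked (1663.6 to 3264.9), 2752.2 in aged visible (2196.9 to 5201.6), 2268.3 in U (1318.5 to 3653.2), 1501.8 in I (226.5 to 3552.9) and 2500.1 in B arrays (1227 to 4610.8). The impaired group had the lowest median of the 10, with young and aged ranges overlapping in every treatment.

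Npy (M15880_at) was most even in young hidden platform rats, which read 739.1, 819.6, 865.2, 991.8, 1043.1 and 1140, the group with the highest mean. The 3 young cage controls read 243.7, 846.4 and 1285.5, the young yoked arrays 470.2, 666.2, 784.6, 802.7, 1118.9 and 1223.1, and the young visible arrays 25.2, 412.9, 840.4 and 957.2. Aged cage controls read 336.8, 549.6, 718.6, 718.9 and 857.9. Medians of the larger aged groups were 602.3 (yoked, 347.4 to 965.8), 772.6 (visible, 683.2 to 1218.5), 502.8 (U, 353.9 to 934.5), 467.8 (I, 161.6 to 1371.4) and 754 (B, 428.5 to 1142.1). The value of 25.2 stands far below all others, and it came from an array of low correlation.

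Gad1 (X57573_at) read 2106.4, 6710 and 11359.5 in young cage controls against 1310.8, 1893.1, 1911.1, 2082.6 and 2120.2 in aged ones, with the lowest young value inside the aged range. Young yoked arrays read 2209.4, 2216, 2637, 3081.8, 4251.1 and 5418.9, young visible arrays 1405.6, 2327.2, 3160.8 and 7290.1, and young hidden arrays 829.3, 2547.7, 2572.6, 2812.6, 2825 and 3947.4. Medians were 2355.1 in aged yoked (1631.6 to 2816.7), 2059 in aged visible (1421.2 to 7024.4), 2653.1 in U (1312.9 to 3529.9), 2032.2 in I (829.2 to 2887.2) and 2473.3 in B arrays (1596.3 to 3045). The 4 Gad1 values above 6000 (young cage animals 70 and 74, young visible animal 65, aged visible animal 68) include 3 from arrays of low correlation. The same 4 arrays held the 4 highest Sst values.

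Cck (X01032_at) differed more between arrays of a group than between groups. Its group medians ran from 2690.1 (I) to 4485.7 (B), while single arrays fell to 171 in a young cage control, 314.2 in an aged visible rat, 405.9 in an impaired rat and 470.7 in an aged yoked rat. All 4 of these were arrays of low correlation, and Cck was above 1000 on the other 75 arrays. Pvalb (rc_AI175539_at) had group medians from 456.2 (young hidden) to 694.1 (U). Its lowest arrays, at 145.8, 147.6 and 160 in the aged visible, impaired and aged yoked groups, were arrays of low correlation as well.

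**Figure D1:**
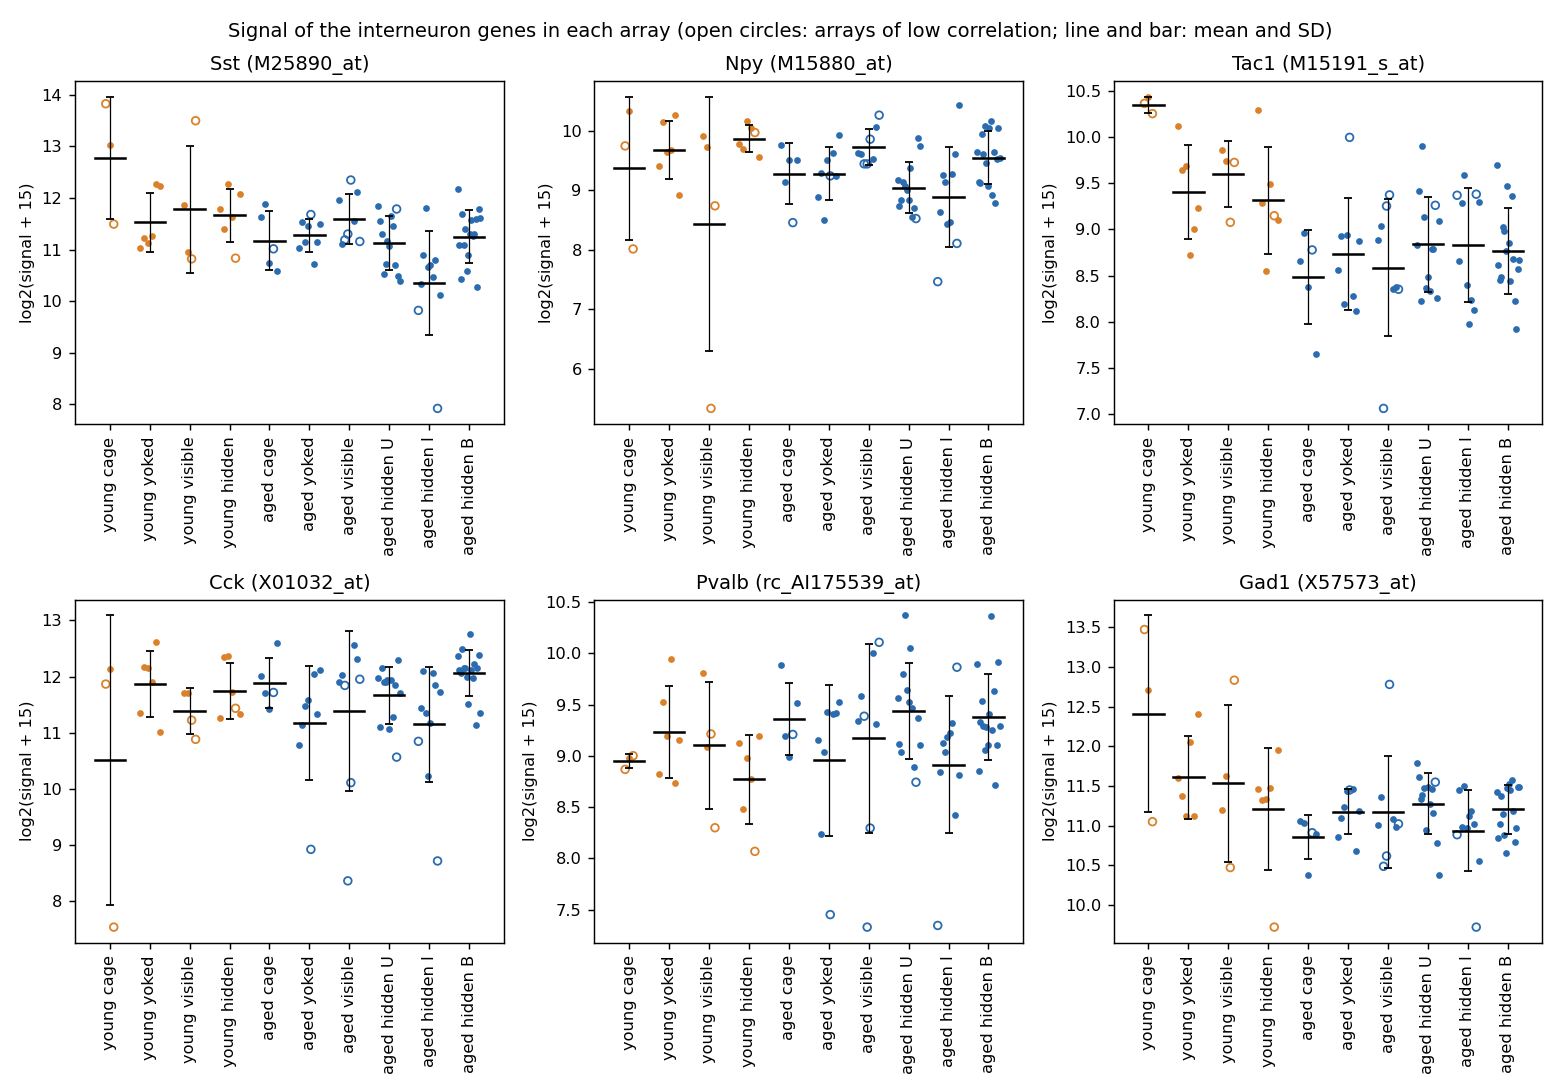
Signal of the 6 genes, as log2(signal + 15), in each array of the 10 groups, with 1 point per array, orange for young and blue for aged, open circles for the 14 arrays of low correlation, and a line with a bar for the group mean and SD. Tac1 is higher in all 4 young groups than in the 6 aged groups by group mean, and the lowest Cck points are open circles.

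Placed in order of group means, neighbouring groups mostly did not differ beyond their spread. Sorting puts close means side by side, so gaps between neighbours describe the order and do not test whether groups differed. For each probe set 9 pairs of neighbours were formed, and a gap was set against the larger SD of the pair. Only 1 gap exceeded it over all 8 probe sets, that between young cage (10.35 ± 0.09 SD, n = 3, log2 scale) and young visible (9.6 ± 0.35 SD, n = 4) for Tac1. The Tac1 order then ran young yoked, young hidden, U, I, B, aged yoked, aged visible and aged cage (8.48 ± 0.51 SD, n = 5). For Sst it began with young cage (12.78 ± 1.19 SD, n = 3) and ended with I (10.35 ± 1 SD, n = 10), and for Gad1 it began with young cage (12.41 ± 1.24 SD, n = 3) and ended with aged cage (10.86 ± 0.28 SD, n = 5). In a moderated F test across the 10 groups, 4 of 7 tested probe sets passed, where 25% of all probe sets did (4 of 7 and 42.1% at an unadjusted p under 0.05): Sst M25890_at (F = 4.85, limma adjusted p = 0.0011), Tac1 (F = 4.74, adjusted p = 0.0013), Npy (F = 2.66, adjusted p = 0.0415) and Gad1 (F = 2.57, adjusted p = 0.0479). The same 4 passed without the arrays of low correlation, where 26.4% of all probe sets did. Gad1 lost its call when any of 56 single arrays was left out, and Npy when any of 13 was, the Gad1 fit giving an adjusted p of 0.285 without young cage animal 70.

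The series sets aged against young rats. With treatment as a factor, 44 aged and 19 young arrays, 2 of 7 tested probe sets passed, both lower in aged rats, where 5.13% of all probe sets passed, 1.93% lower and 3.2% higher. Tac1 fell by 0.85 ± 0.17 (adjusted p = 0.00113), to 0.556 times the young level on the log2(signal + 15) scale, and 38 of 44 aged arrays lay below the young mean of their treatment. Sst M25890_at fell by 0.67 ± 0.21 (adjusted p = 0.0414), to 0.627 times, with 36 of 44 arrays below. In a pooled punch, fewer cells of a type and less RNA per cell cannot be told apart. Gad1 differed by −0.45 ± 0.18 (adjusted p = 0.116, 32 of 44 below), Npy by −0.18 ± 0.22 (adjusted p = 0.707, 30 of 44 below), Cck by −0.09 ± 0.27 (adjusted p = 0.892) and Pvalb by 0.17 ± 0.18 (adjusted p = 0.658, with 35 of 44 aged arrays above the young mean).

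In the 49 arrays left without those of low correlation, 4 of 7 passed, all lower, where 13.9% of all probe sets passed and 6.5% were lower. Tac1 fell by 0.88 ± 0.17 (adjusted p = 0.000478) and Sst by 0.61 ± 0.17 (adjusted p = 0.0134). Gad1 fell by 0.5 ± 0.13 (adjusted p = 0.00696) and Npy by 0.54 ± 0.15 (adjusted p = 0.0101). So 3 of the 4 peptide precursors had a probe set that was lower in aged rats in this set, as had Gad1. The other Sst probe set, K02248cds_s_at, differed by −0.15 (adjusted p = 0.69). Gad2, the gene of the other GABA-synthesising enzyme, rose by 0.5 (adjusted p = 0.0492). Pvalb, at 0.19, and Cck, at −0.14, did not pass (adjusted p = 0.368 and 0.59). The Sst call is the less stable of the first pair: it was lost with quantile normalization, with no filter, without the 7 arrays of low control ratio and without any 1 of 13 single arrays, young cage animal 70 giving the highest adjusted p (0.107). Tac1 passed in all of these fits.

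The other probe sets of Sst and Tac1 did not show these falls. K02248cds_s_at of Sst had group medians of 408.6 (young visible) to 1046.3 (aged cage), with arrays from 95.9 to 1962.2, and its age groups overlapped in every treatment. It differed between aged and young by 0.06 ± 0.26 (adjusted p = 0.928), and by −0.15 without the arrays of low correlation (adjusted p = 0.69). X56306_s_at of Tac1, which did not pass the filter and is given from the fit without one, had medians of 31.8 (U) to 120.5 (young cage) and differed by 0.12 ± 0.26 (adjusted p = 0.957). Over the 79 arrays the deviations of the 2 Sst probe sets from their group means correlated with r = 0.473 (rho = 0.534, permutation p = 8e-05 and 2e-05, adjusted 0.00032 and 8e-05 over 4 relations) and with r = 0.647 without the arrays of low correlation. The r was 0.576 without the 2 arrays farthest from the median. The 2 Tac1 probe sets correlated with r = 0.173 (rho = 0.167, permutation p = 0.177 and 0.182), with r = −0.02 without the arrays of low correlation. The Tac1 fall rests on M15191_s_at alone, and the Sst fall on M25890_at alone. For K02248cds_s_at, 21 of 44 aged arrays lay below the young mean of their treatment and 23 above.

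**Figure D2:**
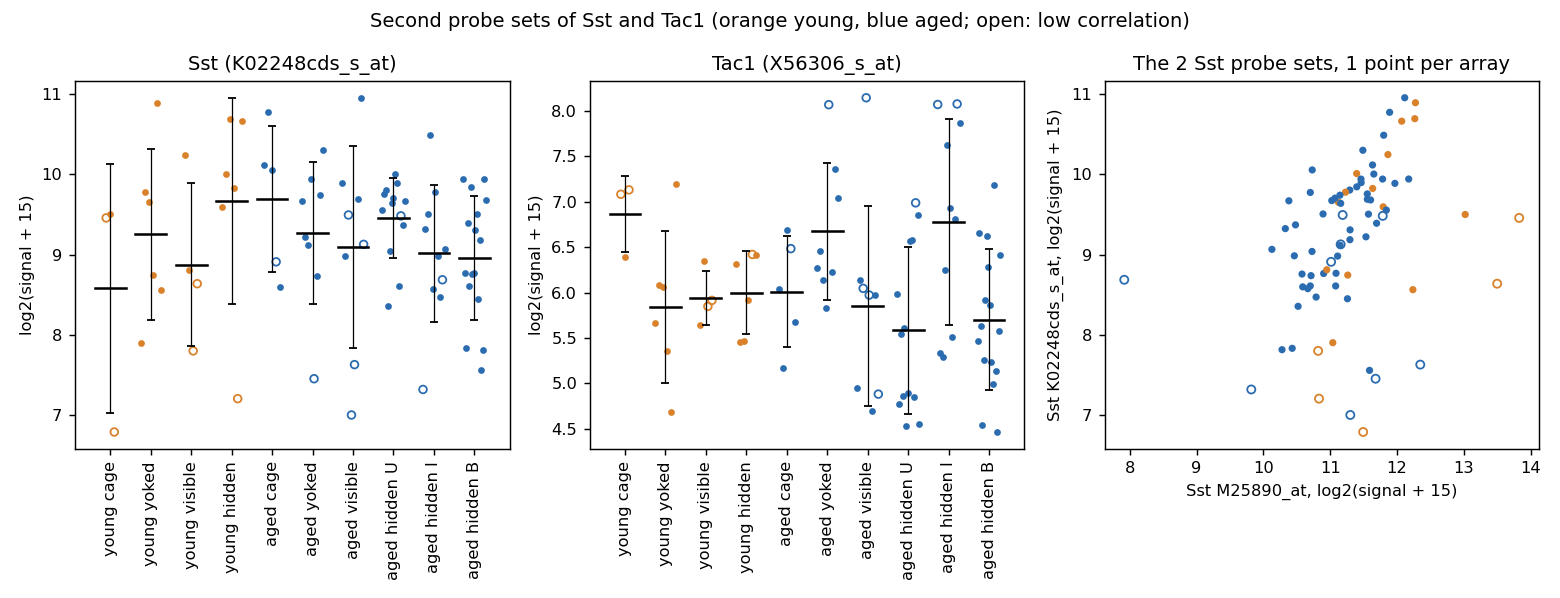
Signal of the lower probe sets of Sst and Tac1, as log2(signal + 15), by group with mean and SD, and the 2 Sst probe sets plotted against each other with 1 point per array. The 2 Sst probe sets rise together on most arrays, while several open circles, the arrays of low correlation, lie away from the rest.

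Whether the age difference varied with treatment was tested as an interaction, which no member passed (0 of 7, where 0.305% of all probe sets passed; 2 of 7 and 14.3% at an unadjusted p under 0.05). In the same fit the cage controls showed 3 of 7 tested probe sets lower in aged rats at an adjusted p under 0.05, where 17.1% of all probe sets passed and 7.19% were lower. These were Tac1 at −1.87 ± 0.42 (adjusted p = 0.00157, 5 of 5 aged arrays below all 3 young), Gad1 at −1.56 ± 0.45 (adjusted p = 0.0106, 4 of 5 below all young) and Sst M25890_at at −1.61 ± 0.53 (adjusted p = 0.0259, 3 of 5 below all young). Ranges of aged and young cage controls did not overlap for Tac1, as for 20.7% of all probe sets. Without the arrays of low correlation the young cage group is 1 array, animal 74, whose spread is then taken from the other groups, and the 3 differences were −2.02, −1.87 and −1.81 (adjusted p = 0.0139, 0.00191 and 0.0216). The cage control differences rest on 1 to 3 young arrays, and 10.4% of all probe sets passed with the 1 array kept.

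In rats that swam the Tac1 difference was −0.67 ± 0.31 (yoked, 7 of 8 aged arrays below the young mean), −1.01 ± 0.35 (visible, 8 of 8) and −0.48 ± 0.26 (hidden, 18 of 23), with adjusted p of 0.583, 0.477 and 0.999. The Sst difference was −0.25 ± 0.39 in yoked, −0.19 ± 0.44 in visible and −0.88 ± 0.33 in hidden platform rats (20 of 23 below). Over all probe sets, 0% passed in yoked and in hidden platform rats and 0.0381% in visible platform rats. With all arrays, Npy was the member whose age difference varied most by treatment (F = 5.44, p = 0.0021, limma adjusted p = 0.0956): it was 1.3 ± 0.44 in visible platform rats, with 8 of 8 aged arrays above the young mean, and −0.9 ± 0.33 in hidden platform rats, with 21 of 23 below. The young visible mean holds the value of 25.2. Without that array, animal 30, the F was 2.37 and the adjusted p 0.438. Without young visible animal 28 the F was 7.74 and the adjusted p 0.0393, so the call turns on single young visible arrays. Without all arrays of low correlation the visible difference was −0.13 ± 0.38 and the interaction F of Npy 0.90 (adjusted p = 0.824). The highest F of the members were then those of Gad1 (4.36, adjusted p = 0.153) and Sst M25890_at (4.11, adjusted p = 0.172), where 1.51% of all probe sets passed.

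**Figure D3:**
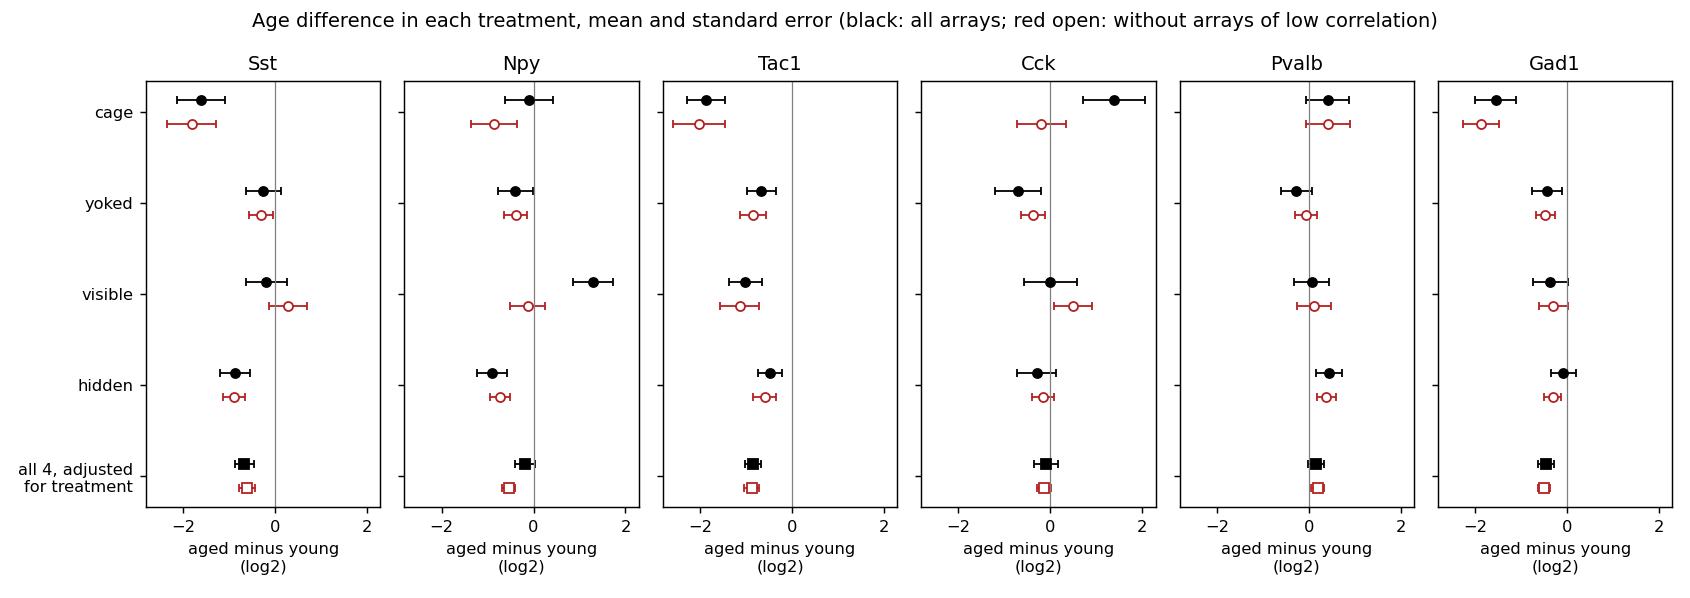
Aged minus young difference (log2 scale) of the 6 genes within each treatment and over all 4, with bars for the standard error, in black with all arrays and in red without the arrays of low correlation. Tac1 lies to the left of 0 in every treatment in both sets, while the Npy difference in visible platform rats changes from 1.3 to −0.13.

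Other genes of the same cells and pathway were looked at in the age comparison, where 269 of 5244 probe sets passed, 168 of them higher. Of 20 other interneuron and GABA genes, 11 were tested, 0 rose and 1 fell, with a median of −0.28 against −0.06 over all tested genes. The one that fell was Abat, the GABA-degrading transaminase, by 0.67 ± 0.2 (adjusted p = 0.0288). Of 14 receptors of the peptides 4 were tested and none passed. Their 3 smallest p-values belonged to the somatostatin receptor Sstr2 at −0.54 ± 0.18 (adjusted p = 0.0525), the cholecystokinin receptor Cckbr at −0.36 ± 0.2 (adjusted p = 0.279) and the somatostatin receptor Sstr4 at 0.14 ± 0.14 (adjusted p = 0.627). Of 12 peptide processing and granule genes 9 were tested and none passed. The nearest to the threshold were the granule protein Chgb at −0.46 ± 0.18 (adjusted p = 0.116), the prohormone convertase Pcsk2 at 0.45 ± 0.19 (adjusted p = 0.143) and the protease Furin at −0.37 ± 0.16 (adjusted p = 0.156).

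In the smaller set of 49 arrays, 4 of the 11 other interneuron and GABA genes fell and 1 rose, where 6.5% of all probe sets were lower and 7.36% higher. Cnr1, the cannabinoid receptor carried by cholecystokinin basket cells, fell by 0.8 ± 0.18 (adjusted p = 0.00237) and Abat by 0.68 ± 0.16 (adjusted p = 0.00389). Htr3a, a serotonin receptor of several interneuron types, fell by 0.45 ± 0.15 (adjusted p = 0.0345), and Calb2, the calcium-binding protein calretinin of another interneuron class, by 0.41 ± 0.14 (adjusted p = 0.0435). Gad2, the gene of the other GABA-synthesising enzyme, GAD65, was the one that rose, by 0.5 ± 0.18 (adjusted p = 0.0492), while Gad1 fell in the same fit. With all arrays Gad2 differed by 0.57 ± 0.2 (adjusted p = 0.0667). Sstr2 fell by 0.43 ± 0.13 (adjusted p = 0.0238) and Pcsk2 rose by 0.61 ± 0.12 (adjusted p = 0.000613), and the other tested receptors and processing genes did not pass.

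Markers of other cells and tissue moved with age as well. All 8 tested astrocyte markers had differences above 0, as did 43.8% of all probe sets, and 1 of them passed with all arrays, where 3.2% of all probe sets were called higher. It was the water channel Aqp4, which rose by 0.96 ± 0.23 (adjusted p = 0.00665). With 49 arrays 3 of the 8 rose, where 7.36% of all probe sets did. Of 6 microglial markers 1 rose, the complement gene C1qb, by 1.25 ± 0.23 (adjusted p = 0.000632). None of 7 oligodendrocyte, 4 endothelial, 2 choroid plexus and 5 CA1 pyramidal markers passed with all arrays, where the oligodendrocyte gene Mbp differed by 1.44 ± 0.46 (adjusted p = 0.0502). With 49 arrays Mbp rose by 1.28 ± 0.39 (adjusted p = 0.0208) and the oligodendrocyte gene Mal fell by 0.55 ± 0.17 (adjusted p = 0.0225). No endothelial, choroid plexus or CA1 pyramidal marker passed in that set. The summed signal of 6 markers of other hippocampal fields was 3421.4 to 5365.5 in aged and 5691 to 7536.5 in young cage controls, and Pcp4 among them fell with age by 0.81 ± 0.21 (adjusted p = 0.0135), while with 49 arrays it differed by −0.61 ± 0.23 (adjusted p = 0.0693). Striatal markers, of interest because Tac1 is abundant in striatum, summed over 5 genes to 1683.6 to 2985.4 in aged and 2610.6 to 6357.4 in young cage controls. No striatal marker of 3 tested passed in the age comparison. By group median, however, the striatal sum was higher in every young group (4123.95 to 4733.7) than in every aged group (2316.5 to 3481.7). That is the order seen for Tac1 by group mean. Young and aged ranges of the striatal sum overlapped in every treatment. Endothelial markers, 5 on the array, summed to 5047.5 to 10165.5 in young cage controls against 2247.1 to 4190.8 in aged ones, without overlap. Of the 3 young cage arrays 2 were of low correlation, and the share of all probe sets without overlap in cage controls is given above with Tac1. In yoked, visible and hidden platform rats the young and aged endothelial sums overlapped. The part of these markers in the results above was not tested. Markers of CA1 pyramidal cells, 7 on the array, summed to between 5268.3 (an impaired array) and 95074.5 (an aged visible array). No sum was at 0 in any marker list, those of striatum and choroid plexus included. A sum above 0 therefore cannot show which tissue was read.

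Learning was compared within aged hidden platform rats. In impaired minus unimpaired rats 0 of 7 tested probe sets passed, as did 0% of all probe sets, although 12.9% of all had an unadjusted p under 0.05. All 7 differences were below 0 with all arrays, where 53.2% of all probe sets were above 0. The median of the 7 was −0.43, against 0.04 over all probe sets (−0.17 with quantile normalization and 0.32 with no filter). Sst M25890_at had the largest difference in that fit, −0.78 ± 0.27 (p = 0.00616, limma adjusted p = 0.312), followed by Pvalb at −0.52 ± 0.27, Cck at −0.52 ± 0.38, K02248cds_s_at of Sst at −0.43 ± 0.34, Gad1 at −0.34 ± 0.22, Npy at −0.17 ± 0.24 and Tac1 at −0.01 ± 0.25. Impaired animal 83, whose median correlation with other arrays was 0.223, held the lowest Sst value of the study (226.5), and without it the Sst difference was −0.5 and that of Pvalb −0.63 (adjusted p = 0.715 for both). With all arrays of low correlation left out, 6 of 7 differences were below 0 and Npy was at 0.07. Pvalb then differed most, by −0.5 ± 0.18 (p = 0.00843, limma adjusted p = 0.277), and Sst by −0.35 ± 0.21 (p = 0.104, adjusted p = 0.456). The unfiltered X56306_s_at of Tac1 went the other way, at 1.19 ± 0.4 (p = 0.00415, adjusted p = 0.254), with medians of 102.2 in I and 31.8 in U rats.

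Within aged rats no member passed in the 6 comparisons of hidden, visible, yoked and cage groups, where between 0% and 0.0191% of all probe sets did. At an unadjusted p under 0.05 there were 2 of 7 members in hidden minus visible (11.4% of all probe sets) and 1 of 7 in hidden minus yoked (2.96%). There were 0 in hidden minus cage (8.56%), yoked minus cage (9.06%), visible minus cage (9.55%) and visible minus yoked (4.65%). Hidden platform rats, U and I together, differed from visible platform rats by −0.77 ± 0.23 in Npy (p = 0.00163, limma adjusted p = 0.19) and by −0.86 ± 0.27 in Sst M25890_at (p = 0.00222, adjusted p = 0.217). These were −0.58 ± 0.25 (adjusted p = 0.375) and −0.79 ± 0.25 (adjusted p = 0.204) when the arrays of low correlation, among them 4 of 8 aged visible arrays, were left out, and 0% of all probe sets passed. In young rats the Npy difference between the same treatments was 1.44 ± 0.62 (adjusted p = 0.836), and 0.4 without animal 30. Against cage controls, young hidden platform rats differed by −1.04 ± 0.37 in Tac1 (p = 0.0109, adjusted p = 0.0937) and by −1.2 ± 0.54 in Gad1 (p = 0.037, adjusted p = 0.182), so 0 of 7 passed where 5.28% of all probe sets did (2 of 7 and 23.8% unadjusted). That background count was unstable: it was 277 probe sets with all arrays, 7 (0.133%) without those of low correlation, 4 without young cage animal 70 and 0 with the control ratio as a covariate. The Gad1 difference was −0.67 without animal 70 and −1.88 without animal 76, the Tac1 difference stayed between −1.23 and −0.89 with any 1 array left out, and no member passed in these fits. The other 3 young comparisons gave 0 of 7 and 0% of all probe sets, and at an unadjusted p under 0.05 1 of 7 in hidden minus visible (5.23%), 0 in hidden minus yoked (1.77%) and 0 in visible minus yoked (1.41%).

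The B arrays, none of low correlation, were set against the other hidden platform rats. Relative to impaired rats 2 of 7 tested probe sets passed, both higher, where 12% of all probe sets passed and 5.8% were higher. Sst M25890_at rose by 0.9 ± 0.24 (adjusted p = 0.0144) and Npy by 0.67 ± 0.21 (adjusted p = 0.0332), and Cck differed by 0.91 ± 0.32 (adjusted p = 0.051). Once arrays of low correlation were left out, Cck rose by 0.57 ± 0.19 (adjusted p = 0.0476), and Sst at 0.53 (adjusted p = 0.0834) and Npy at 0.39 (adjusted p = 0.182) did not pass, where 9.34% of all probe sets did. Leaving out impaired animal 83 alone gave 0 calls among the members, where 187 of 5244 probe sets passed. In the fit without a filter X56306_s_at of Tac1 was lower in B than in impaired rats (difference −1.07 ± 0.36, adjusted p = 0.0336), where 1864 of 8740 probe sets passed. Relative to unimpaired rats, Npy differed by 0.5 ± 0.2 (adjusted p = 0.462) and no member passed, where 0.0572% of all probe sets did. Against young hidden platform rats no member of U, I or B rats passed, and 0% of all probe sets did. At an unadjusted p under 0.05 there were 2 of 7 members in each, where 4.1% (U), 5.89% (I) and 8.09% (B) of all probe sets were. These 3 comparisons share their 6 young arrays. The Sst difference was −1.32 ± 0.34 for I (p = 0.000214, limma adjusted p = 0.375), and Pvalb differed by 0.67 ± 0.28 for U (adjusted p = 0.98) and 0.61 ± 0.27 for B (adjusted p = 0.573).

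How the genes varied together within groups was measured on deviations from group means over the 79 arrays, for all 15 pairs of the 6 genes, with p-values from 100000 permutations within groups adjusted over the 15 pairs. Of these, 4 pairs passed by Pearson's r and 3 by Spearman's rho. Sst and Gad1 had r = 0.683 and rho = 0.568 (permutation p = 1e-05 for both, the smallest these permutations can give, adjusted 0.00015 and 7.5e-05). Npy and Cck had r = 0.46 and rho = 0.604 (permutation p = 2e-05 and 1e-05, adjusted 0.00015 and 7.5e-05). Cck and Pvalb had r = 0.412 and rho = 0.372 (adjusted permutation p = 0.0104 and 0.00765), and Tac1 and Cck had r = −0.32 and rho = −0.275 (adjusted permutation p = 0.027 and 0.0641). Set against the r of Cck with all other probe sets, from −0.634 (5th percentile) to 0.655 (95th percentile), the 3 Cck pairs were not extreme. From the side of Npy, whose r ran from −0.372 to 0.356, the pair of Npy and Cck lay above the 95th percentile. Without the arrays of low correlation its r of 0.619 was above the 95th percentile of both genes (0.366 for Npy, 0.427 for Cck). With all arrays r with Sst ran from −0.326 to 0.435. The remaining 11 pairs had r between −0.251 and 0.257. Pairs that share many cells in the hippocampus were among them: Sst and Npy had r = 0.257 (rho = 0.2, adjusted permutation p = 0.29 and 0.222), and Pvalb and Gad1 had r = 0.00117 (rho = 0.0822, adjusted permutation p = 0.992 and 0.702).

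Both leading pairs kept their sign without the arrays of low correlation, which leaves 65. Npy and Cck then had r = 0.619 (rho = 0.639, adjusted permutation p = 0.00015 for both). Sst and Gad1 had r = 0.394 (rho = 0.338, adjusted permutation p = 0.0289 and 0.0618), a drop by over 1.5 times. Cck and Pvalb had r = 0.2 and Tac1 and Cck r = −0.157, neither passing, and Pvalb with Gad1 came to r = 0.345 (rho = 0.347, adjusted permutation p = 0.0591 and 0.0618). Without the 2 arrays farthest from the median of the first gene, r was 0.592 for Sst and Gad1, 0.583 for Npy and Cck, 0.348 for Cck and Pvalb and −0.239 for Tac1 and Cck. With K02248cds_s_at in place of M25890_at, Sst had r = 0.205 with Gad1 (adjusted permutation p = 0.244) and r = 0.432 with Npy (adjusted permutation p = 3e-04), so which partner Sst has depends on the probe set.

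**Figure D4:**
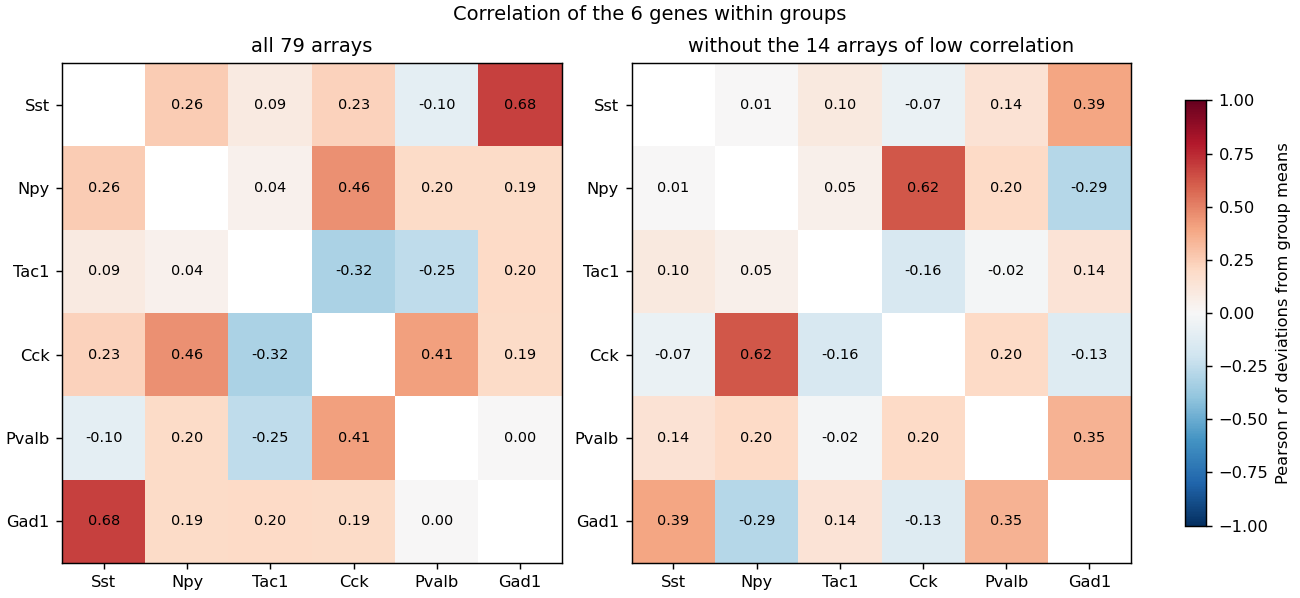
Pearson r of the deviations from group means for the 15 pairs of genes, on a scale from −1 (blue) to 1 (red), over 79 arrays and over 65 without the arrays of low correlation. Sst with Gad1 has the highest r over 79 arrays (0.683), and Npy with Cck over 65 (0.619). Over 65 arrays Sst with Gad1 (0.394) is close to Pvalb with Gad1 (0.345). Over 79 arrays Npy with Cck (0.46) is close to Cck with Pvalb (0.412).

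Within single groups of at least 6 arrays, 7 groups and 105 relations, none passed after adjustment (smallest adjusted p = 0.146 for r, exact or permutation), and 16 had an unadjusted permutation p under 0.05. The sign was steady for both leading pairs. Sst and Gad1 had a positive r in 7 of 7 groups, from 0.18 to 0.882 with a median of 0.611, and Npy and Cck in 7 of 7, from 0.263 to 0.937 with a median of 0.619. Tac1 and Cck had a negative r in 6 of 7 groups, and Sst and Npy a positive one in 4 of 7.

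**Figure D5:**
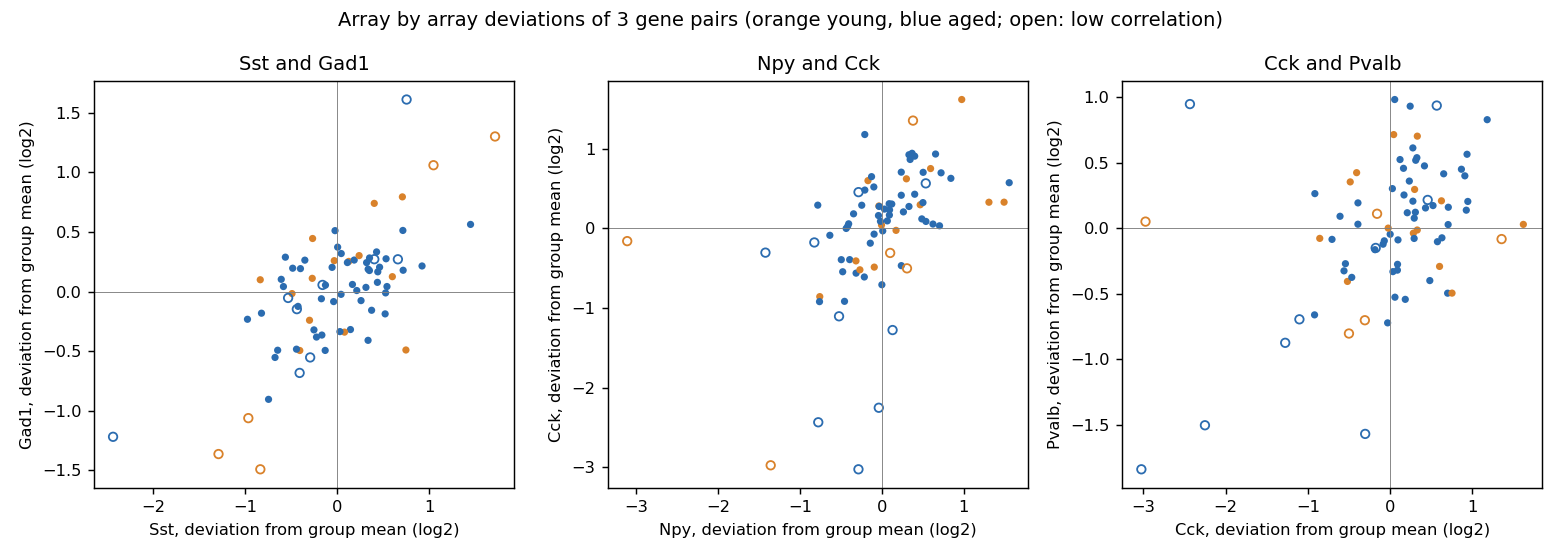
Deviation of each array from its group mean (log2 scale) for Sst and Gad1, Npy and Cck, and Cck and Pvalb, with 1 point per array, orange for young and blue for aged, and open circles for the arrays of low correlation. In the Cck and Pvalb panel the points at the lower left are open circles, and without all 14 arrays of low correlation r is 0.2 in place of 0.412.

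Among 5243 other tested probe sets ordered by r, Gad1 held rank 3 for Sst, and rank 18 without the arrays of low correlation. From the side of Gad1, Sst held rank 24, and rank 158 without them. Cck held rank 65 for Npy, and rank 6 without them. Many probe sets followed Cck closely, so from its side the pair was less distinct: Npy held rank 828 for Cck, and rank 23 without those arrays. Array quality moved with the genes too. Of 12 relations of the 6 genes with 2 quality measures, 7 passed by r and 3 by rho. Sst (r = 0.441), Npy (0.404), Gad1 (0.358) and Pvalb (0.311) rose with the median correlation of the array, and Tac1 fell with the control ratio (r = −0.342). The adjusted permutation p of r was 0.0136, 0.00836, 0.0136, 0.0457 and 0.0136. By rho only Pvalb among these passed (adjusted permutation p = 0.0347, the others 0.0632 to 0.0861). Without the arrays of low correlation r was 0.079 (Sst), −0.143 (Npy), 0.232 (Gad1), 0.118 (Pvalb) and −0.049 (Tac1). Cck had r = 0.642 with the median correlation of the array (rho = 0.533, permutation p = 1e-05 for both, adjusted 0.00012 for both) and 0.537 with the 3' to 5' control ratio (rho = 0.33, adjusted permutation p = 0.00192 and 0.0349). Over the other 65 arrays these were 0.21 and −0.04. Their part in the pair correlations was not tested beyond the values given: with the ratio as a covariate r was 0.693 for Sst and Gad1, 0.479 for Npy and Cck, 0.311 for Cck and Pvalb and −0.173 for Tac1 and Cck.

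The genes whose deviations were most like each member, over 79 arrays, are given as descriptions, and all arrays share their amplification and scaling. For Sst they were Rpl22 (a ribosomal protein, r = 0.739), Atp5pf (an ATP synthase subunit, 0.702) and Chn1 (the Rac regulator chimaerin, 0.679). Gad1 was nearest to Mfsd6 (0.802), Zranb2 (a splicing protein, 0.796) and Pde4b (a cyclic AMP phosphodiesterase, 0.758). Cck was nearest to Gnas (the stimulatory G protein alpha subunit, 0.877), Tesc (the calcium-binding protein tescalcin, 0.875) and Itm2b (0.869). For Npy the nearest were Trap1 (a mitochondrial chaperone, 0.593), Guk1 (guanylate kinase, 0.566) and Copz1 (a coatomer subunit, 0.543), and for Pvalb they were Cuta (0.674), Rpl4 (a ribosomal protein, 0.657) and Ctsb (cathepsin B, 0.657). Tac1 had the lowest leading values, with Kcnh6 (a potassium channel, 0.513), Nmu (the neuropeptide neuromedin U, 0.513) and Hk2 (hexokinase, 0.51). Over the 65 arrays these 18 values were between 0.182 and 0.645, each lower than with all arrays.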

How the data were processed

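Each array has 1 deposited intensity per probe set, on a linear scale, made with MAS5 per the submitters' processing notes. Arrays had been scaled before deposit: the mean signal leaving out 2% of values at each end lay between 500.1 and 501 on every array. Annotation gave 7018 of 8799 probe sets 1 gene symbol and 308 several, and the rest are unnamed here. Of 8740 non-control probe sets, the 40% of lowest mean signal were left out, which kept 5244 (3233 genes). Values were tested as log2(signal + 15), a scale that understates changes of low signals. Fits used limma 3.58.1 in R 4.3.3 (lmFit, eBayes with trend), two-sided, and were tested on simulated data. The age fit had treatment as a factor, its interaction and the 10-group test were moderated F tests, and other comparisons had 1 mean per group. Correlations used numpy 2.4.6, scipy 1.17.1 and the probe set of highest mean signal per gene.

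The genes and lists were chosen with earlier results of these data known. Named were all probe sets of the 6 genes, the 3 most alike genes for each, and in each list the genes past the age threshold or else the 3 of smallest p; marker genes and genes past the threshold without the arrays of low correlation were named after their values were seen. Alternatives were pseudocounts of 1 and 60, no filter, quantile normalization, array quality weights, the control ratio as a covariate, K02248cds_s_at and X56306_s_at in the correlations, leaving out the 14 arrays of correlation under 0.85 or each array in turn and, chosen after the data were seen, the 7 arrays of control ratio under 1. The labels give 1 animal per array and no batch, and the number of arrays limits the precision. Probe sequences and scan dates were not used here, and the build used for probe design is not given in the sources used here.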

Additional observations from a re-analysis of the deposited data

Results flagged for a closer look

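In groups of 4 to 10 arrays, 11 values, from 8 arrays, stood far from the rest of their group, over 56 combinations of group and probe set. Chance flags about 1 in 20 such groups. Impaired animal 83 was lowest for Sst M25890_at (226.5, group median 1501.8) and for Gad1 (829.2, median 2032.2). Young hidden animal 39 was lowest for Sst K02248cds_s_at (132.8, median 951.8) and for Gad1 (829.3, median 2692.6). Aged yoked animal 63 was highest for Tac1 M15191_s_at (1008.1, median 407.6) and lowest for Cck (470.7, median 2694.9). For Tac1 M15191_s_at, young visible animal 30 was lowest (525.1, median 836) and aged visible animal 33 was lowest (118.3, median 387.3). Aged visible animal 67 was highest for Tac1 X56306_s_at (267.9, median 47.8). For Gad1, aged cage animal 98 was lowest (1310.8, median 1911.1) and aged visible animal 68 highest (7024.4, median 2059). Of these 8 animals, all except animal 98 gave arrays of low correlation.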

How the results depend on the processing

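The count of members past the threshold in the age comparison was 2. It was 4 with array quality weights and without the arrays of low correlation, and 1 with no filter, with quantile normalization and without the arrays of control ratio under 1, and it ran from 1 to 3 when each array was left out. Tac1 M15191_s_at passed in all of these fits, with a difference from −0.92 to −0.80 when each array was left out. The 10-group count of 4 became 2 with no filter, with quantile normalization and with the ratio as a covariate, 6 with array quality weights, where 3921 of 5244 probe sets passed, and 2 to 4 with single arrays left out. With array quality weights the count became 2 in the interaction, 2 in U and 2 in I minus young hidden, 3 in B minus young hidden, 2 in aged hidden minus visible, 3 in young hidden minus cage and 1 in B minus unimpaired, each 0 with equal weights. Over all probe sets the weights called 1850, 154, 99, 710, 513, 1484 and 436 in these 7 comparisons, in the same order, against 16, 0, 0, 0, 1, 277 and 3 with equal weights. Leaving out single arrays gave 0 to 1 in the interaction and 0 to 3 in B minus impaired, whose count of 2 became 1 without the arrays of low correlation. The number of correlated pairs, 4, became 2 without those arrays, 8 with the lower probe sets of Sst and Tac1, and 2 to 5 with single arrays left out, 2 without aged visible animal 67 or aged yoked animal 63. Some values close to 0 changed sign: K02248cds_s_at of Sst with age (−0.12 with weights, −0.019 with the ratio, −0.15 without the arrays of low correlation, −0.077 to 0.16 leaving out 1 array), Npy in impaired minus unimpaired (0.042 with weights, 0.066 without the arrays of low correlation), Tac1 there (−0.091 to 0.088 leaving out 1 array) and r of Pvalb and Gad1 (−0.0012 with a pseudocount of 60, −0.166 with quantile normalization, −0.0626 to 0.0845 leaving out 1 array). The cause was not tested. Over all probe sets the age comparison called 269, against 97 with quantile normalization, 1134 with weights and 727 without the arrays of low correlation. In B minus impaired, 304 of 629 calls were higher, 392 of 1864 with no filter and 321 of 417 with quantile normalization, where the median difference of all probe sets moved from −0.03 to −0.39 and 0.18. Npy passed the interaction without young visible animal 28. No paired analysis was possible because the numbers in the labels are animal numbers that no 2 groups share. Differences between probe sets of a gene, and signals near background, limit what Tac1 X56306_s_at can show.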
